A study of Etheostoma caeruleum with 18 samples.

Results

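The 100 most abundant genes of the rainbow darter liver were chosen by mean TPM over all 18 libraries, as the 100 highest of 302933 assembled genes listed. TPM is by definition a relative transcript abundance, corrected for transcript length, that sums to the same total in each library. Levels of different genes can then be set side by side. The deposited TPM are proportional to the deposited counts, so whether they carry this length correction cannot be told. Ranks across genes share that limit. A gene can gain share only where others lose it. The rainbow darter (Etheostoma caeruleum) is a small river fish, and these animals were wild fish from the Grand River that were acclimated for 14 days before exposure. All fish were fed frozen bloodworms. Liver polyA RNA was sequenced from 18 fish, 1 library each. The 6 control fish received no venlafaxine, 6 fish were held with 1 µg/L of R-venlafaxine and 6 with 1 µg/L of S-venlafaxine. Exposure lasted 14 days. The drug, an inhibitor of serotonin and noradrenaline reuptake given against depression, exists in the mirror-image forms R and S. Tanks were assigned to groups at random and held several fish each, but the labels give neither the tank nor the sex of a fish. Library names carry a letter A, B or C, each present in all 3 groups, whose meaning is not given. Whether fish with the same letter in a group shared a tank is thus unknown. The p-values rest on the spread between fish, and a tank difference cannot be told apart from it.

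The vertebrate liver makes most proteins of the blood plasma, among them lipid carriers, transport proteins, clotting factors and complement. It is also a main site of intermediary metabolism, storage and detoxification. Its mRNA is therefore known to be dominated by a small set of highly expressed genes, much of it made by hepatocytes. In egg-laying fish the liver of females also makes yolk precursors under the control of estrogen. The genes described here carry assembly identifiers without a name or function, so none of them is assigned to any of these roles, and liver marker genes could not be looked up. In whole tissue, fewer cells of a type and less RNA per cell cannot be told apart.

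The 100 genes held 44.2 ± 1.76% (SD, n = 18) of the TPM of a library, although they are a very small part of the genes listed. The lowest library was at 41.8% and the highest at 48.4%. The values that chose the genes are the same TPM, so levels, shares and ranks are given as a description with no test. The genes at ranks 1 to 10 alone held 16.05 ± 0.985%, those at ranks 11 to 50 held 17.5 ± 0.871%, and those at ranks 51 to 100 held 10.7 ± 0.376%. The next 100 genes held 12.4%.

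By group, the 100 genes held 44.7 ± 1.84% of the library in control fish (43.7% to 48.4%, median 43.9%). They held 44.5 ± 1.97% in R-venlafaxine fish (41.8% to 47.4%, median 44.6%) and 43.4 ± 1.40% in S-venlafaxine fish (42.0% to 46.0%, median 43.1%). The 3 ranges overlap, and the group means lie within 1 SD of each other. The control mean leans on control fish 1, since the other 5 controls lay between 43.7% and 45.0%. The share of ranks 1 to 10 was 16.5 ± 0.904% in controls, 16.1 ± 1.24% with R-venlafaxine and 15.6 ± 0.701% with S-venlafaxine, again with overlapping ranges.

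**Figure D1:**
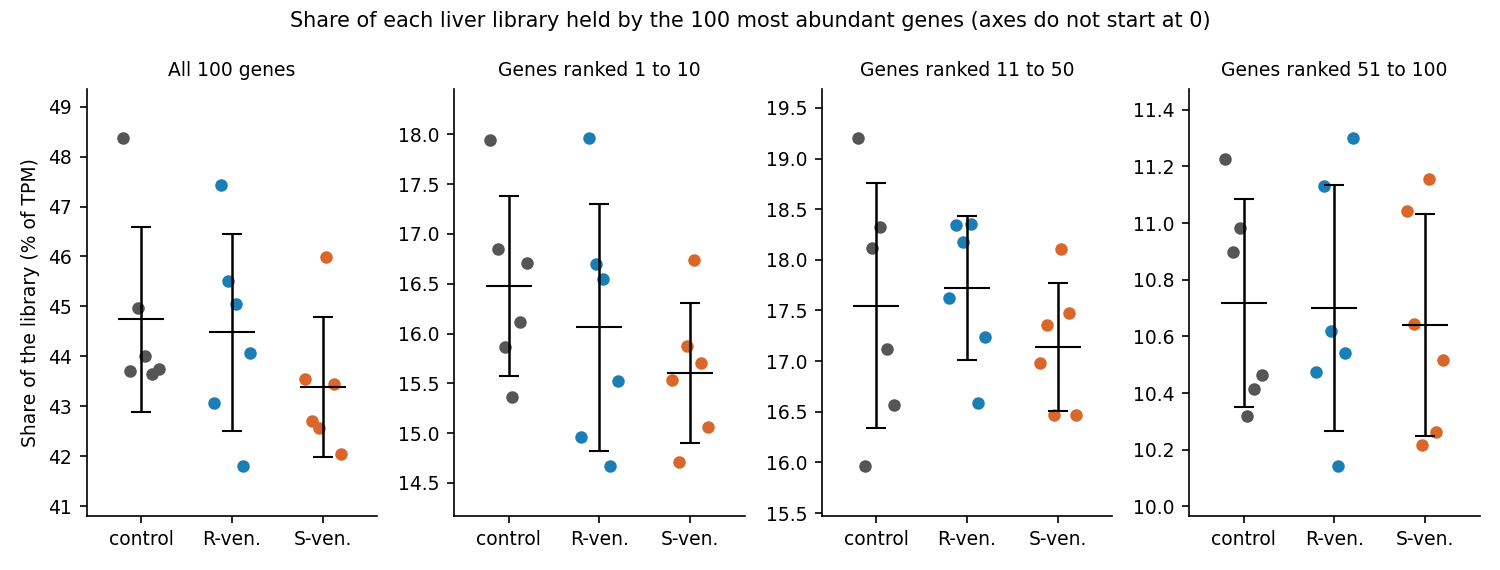
Share of each library's TPM (percent, axes not starting at 0) held by the 100 genes and by ranks 1 to 10, 11 to 50 and 51 to 100, 1 point per fish, with each group's mean (long bar) ± SD (error bar, n = 6). The groups overlap in all panels, with control fish 1 highest at 48.4% and R-venlafaxine fish 5 lowest at 41.8%.

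The libraries differed in breadth as well as in this share. Library totals ran from 43824871 to 65611447 estimated counts, with means of 54654445 in controls, 55895504 with R-venlafaxine and 50048458 with S-venlafaxine. Control fish 1, R-venlafaxine fish 2 and S-venlafaxine fish 4 had the 3 highest shares in the 100 genes, 48.4%, 47.4% and 46.0%, and also the 3 lowest TMM scaling factors. R-venlafaxine fish 5, with the lowest share, listed the most genes at 1 TPM or more, 34500. Control fish 1 listed 27297 and R-venlafaxine fish 2 listed 27111. S-venlafaxine fish 4 listed 29783, near the mean of 30420 over all libraries. The shares, the scaling factors and these gene counts come from the same values, so some of their match is built in. The part of library breadth in the share was not tested.

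TRINITY_DN78112_c0_g1 was the most abundant gene in all 18 libraries. Its level was 34269, 41475 and 49589 TPM (lowest, median and highest fish) in controls, 33664, 37536 and 45266 TPM with R-venlafaxine, and 26927, 36964 and 56689 TPM with S-venlafaxine. It held 2.69% to 5.67% of a library, and both extremes belonged to S-venlafaxine fish. The group means were 41715 ± 6107, 38802 ± 4013 and 38584 ± 9777 TPM (SD, n = 6 each), closer together than the fish within any group.

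The next 4 genes followed at a distance and changed places between fish. TRINITY_DN997_c2_g1 averaged 24738 ± 4354 TPM in controls, 20991 ± 4254 TPM with R-venlafaxine and 20069 ± 5650 TPM with S-venlafaxine, and ranged from 12127 to 29780 TPM over all fish. TRINITY_DN7274_c0_g1 ranged from 10878 to 24476 TPM, with group means of 15473 ± 2709, 16431 ± 3485 and 16514 ± 5149 TPM in the same order. For the first of these the log2 fold change of S-venlafaxine against control was -0.36 (95% interval -0.76 to 0.04), and for the second the means lie within 1 SD of each other. TRINITY_DN35458_c0_g1 ranged from 10193 to 21254 TPM, with group means of 15340 ± 1559, 17139 ± 2484 and 15543 ± 3017 TPM. TRINITY_DN265_c0_g1 ranged from 9592 to 18081 TPM, with group means of 15396 ± 2964, 16090 ± 1151 and 15598 ± 1858 TPM. Mean levels of the last 3 genes were 16139, 16007 and 15695 TPM, so their order among themselves is not separated by the spread between fish.

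TRINITY_DN997_c2_g1 has a companion in the set, TRINITY_DN997_c2_g2, at rank 26 with 2237 to 5961 TPM. Both belong to the same assembly component, a group of assembled genes that share sequence, and the second was a steady 17.1% to 21.2% (median 18.2%) of the first in every fish. The log2 fold change of the second in S-venlafaxine against control was -0.45, with an unadjusted p of 0.0431 and an adjusted p of 1 by edgeR's quasi-likelihood test. Reads of such a pair may be divided between them by the counting, so neither level is certain on its own. This was the only pair of its kind: the 100 genes come from 99 components, 51 are the sole gene of theirs, and 97 hold over 90% of the TPM of theirs.

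The boundary of the set is not a break in the levels. Ranks 99 and 100, TRINITY_DN7828_c0_g1 and TRINITY_DN960_c0_g1, averaged 1734 and 1722 TPM with ranges of 1203 to 2337 and 1022 to 2586 TPM. Just outside, TRINITY_DN31429_c0_g1 averaged 1711 TPM and TRINITY_DN9128_c3_g1 averaged 1702 TPM. The ranges outside were wider, 2.14 to 4673 TPM and 455 to 3485 TPM. Each of these 4 genes was among the 100 most abundant genes of 10 libraries.

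**Figure D2:**
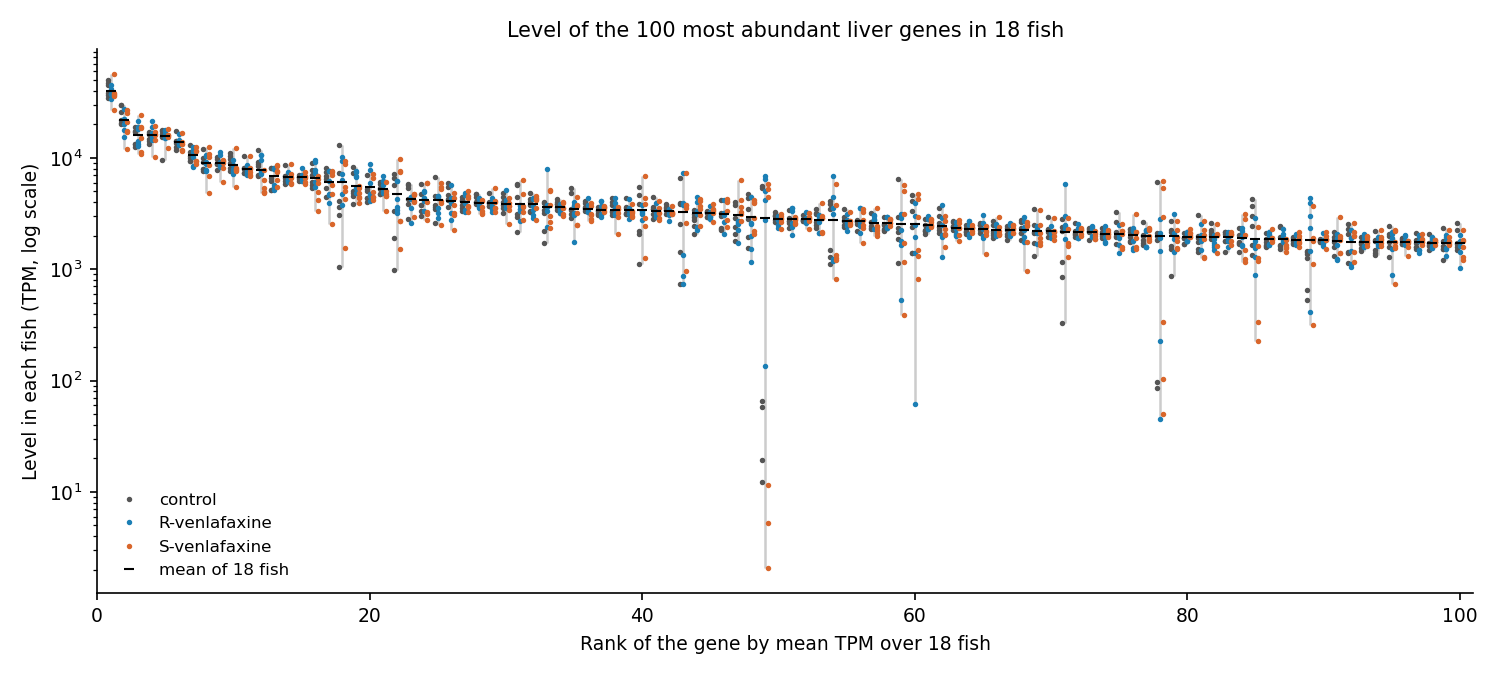
TPM (log axis) of the 100 genes in each of 18 fish, coloured by group, against the rank of the gene by mean TPM, with grey lines from the lowest to the highest fish and black bars at the mean. The mean falls from 39700.4 TPM at rank 1 to 1722 TPM at rank 100, and a few genes reach far below the band formed by the others.

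Genes of the upper ranks were in every library's own list more often than those of the lower ranks. Each library's own 100 most abundant genes contained 85 to 92 of the set (mean 88.4 ± 2.03), and 60 genes of the set were present in all 18 such lists. Of these 60, 44 came from ranks 1 to 50 and 16 from ranks 51 to 100. Over all libraries 157 genes entered some top 100, and 4 of the 57 outside the set did so in 9 or more libraries. The 10 most abundant genes of a library were drawn from 17 genes, 7 of which were in every library's list.

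Choosing on another basis changed few genes. By median TPM in place of the mean, 97 of the 100 were chosen again. The 100 genes with the highest mean among controls shared 97 with the set, those among R-venlafaxine fish 97 and those among S-venlafaxine fish 95, and 90 genes were in all 3 group lists. Leaving out any 1 library kept 98 to 100 of them. All these lists use libraries that also chose the set, so much of this overlap is built in.

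The order of the 100 genes within a fish was compared between fish by Spearman's rank correlation across genes, which are not independent replicates and were chosen by their mean over these same fish. Over the 153 pairs of fish the median was 0.772 (0.614 to 0.897). The 45 pairs within a group had a median of 0.774 and the 108 pairs across groups a median of 0.771, values that lie close together next to the range over pairs. S-venlafaxine fish 4 had the lowest median correlation with the other fish, 0.711, and control fish 6 the highest, 0.815. The first of these also had the highest level of 15 genes and the lowest of 14, while control fish 6 had neither extreme for any gene. Many extremes did not always go with a low correlation. S-venlafaxine fish 2 had the lowest level of 20 genes and the highest of 5, with a median correlation of 0.771.

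The 100 genes differed widely in how much they varied between fish. The coefficient of variation (CV, the SD as a percent of the mean over 18 fish) had a median of 16.6% and ran from 7.79% to 103.2%. It was under 15% for 41 genes and over 50% for 11. These CVs and the fold ranges below are of TPM as deposited. Scaling TPM by TMM factors raised the median CV to 20.3%. For 50 genes the highest fish was less than 2-fold above the lowest, against 10.6% of the 59733 genes with enough counts to be tested. For 10 genes it was 10-fold or more, against 52.2% of those tested. The next 100 genes by mean level had the same counts, 50 and 10, with a median CV of 17.3%, so this spread is not particular to the top 100.

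By CV of TPM without TMM scaling, the steadiest gene was TRINITY_DN3643_c0_g1 at rank 15. It was at 6161, 6737 and 7022 TPM (lowest, median and highest fish) in controls. With R-venlafaxine it was at 6241, 6851 and 8133 TPM, and with S-venlafaxine at 5802, 6694 and 7409 TPM. All 18 fish lay in a narrow band, and the gene stayed between ranks 11 and 19. The order differed in the TMM-scaled edgeR fit of R-venlafaxine against control. There the standard error (SE) was 0.106 for this gene and 0.077 for TRINITY_DN31529_c0_g3, chosen after its values were seen. TRINITY_DN1257_c1_g2 (rank 52) ranged from 2292 to 3254 TPM with a CV of 7.99%. TRINITY_DN842_c0_g1 (rank 42) ranged from 2727 to 3832 TPM with a CV of 8.16%.

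The most variable genes combined high levels in some fish with low levels in others. By median TPM, TRINITY_DN665_c14_g1 ranked 84 and TRINITY_DN10497_c0_g1 ranked 36, while TRINITY_DN1662_c0_g1 ranked 121, outside the first 100. TRINITY_DN665_c14_g1 (rank 78, CV 103.2%) was at 86.2, 1911 and 6049 TPM in controls (lowest, median and highest fish), 45.0, 1692 and 2822 TPM with R-venlafaxine and 50.4, 1632 and 6166 TPM with S-venlafaxine. The fish split into 7 at 338 TPM or below and 11 at 1473 TPM or above, with 2 control, 2 R-venlafaxine and 3 S-venlafaxine fish on the low side. All 3 groups thus held both levels.

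TRINITY_DN10497_c0_g1 (rank 49, CV 95.6%) showed the widest range of the set. It was at 12.3, 61.9 and 5585 TPM in controls, 135, 4580 and 6879 TPM with R-venlafaxine and 2.07, 2210 and 5820 TPM with S-venlafaxine. A 20.6-fold gap with no fish in it lay between 135 and 2778 TPM. Of the 8 fish below it 4 were controls, 1 was exposed to R-venlafaxine and 3 to S-venlafaxine. R-venlafaxine against control gave a log2 fold change of 1.18 (SE 1.70, 95% interval -2.42 to 4.78), so a difference between groups in this gene was not detectable against its spread between fish. In its lowest fish this gene ranked 20102 among all genes.

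TRINITY_DN1662_c0_g1 (rank 89, CV 65.8%) was at 531, 1310 and 1464 TPM in controls, 414, 2667 and 4318 TPM with R-venlafaxine and 316, 1841 and 3663 TPM with S-venlafaxine. Here the 2 exposed groups reached higher than any control while their lowest fish lay below all controls. The log2 fold change of R-venlafaxine against control was 1.21 (SE 0.560), with an unadjusted p of 0.0461 and an adjusted p of 1 by edgeR's quasi-likelihood test.

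**Figure D3:**
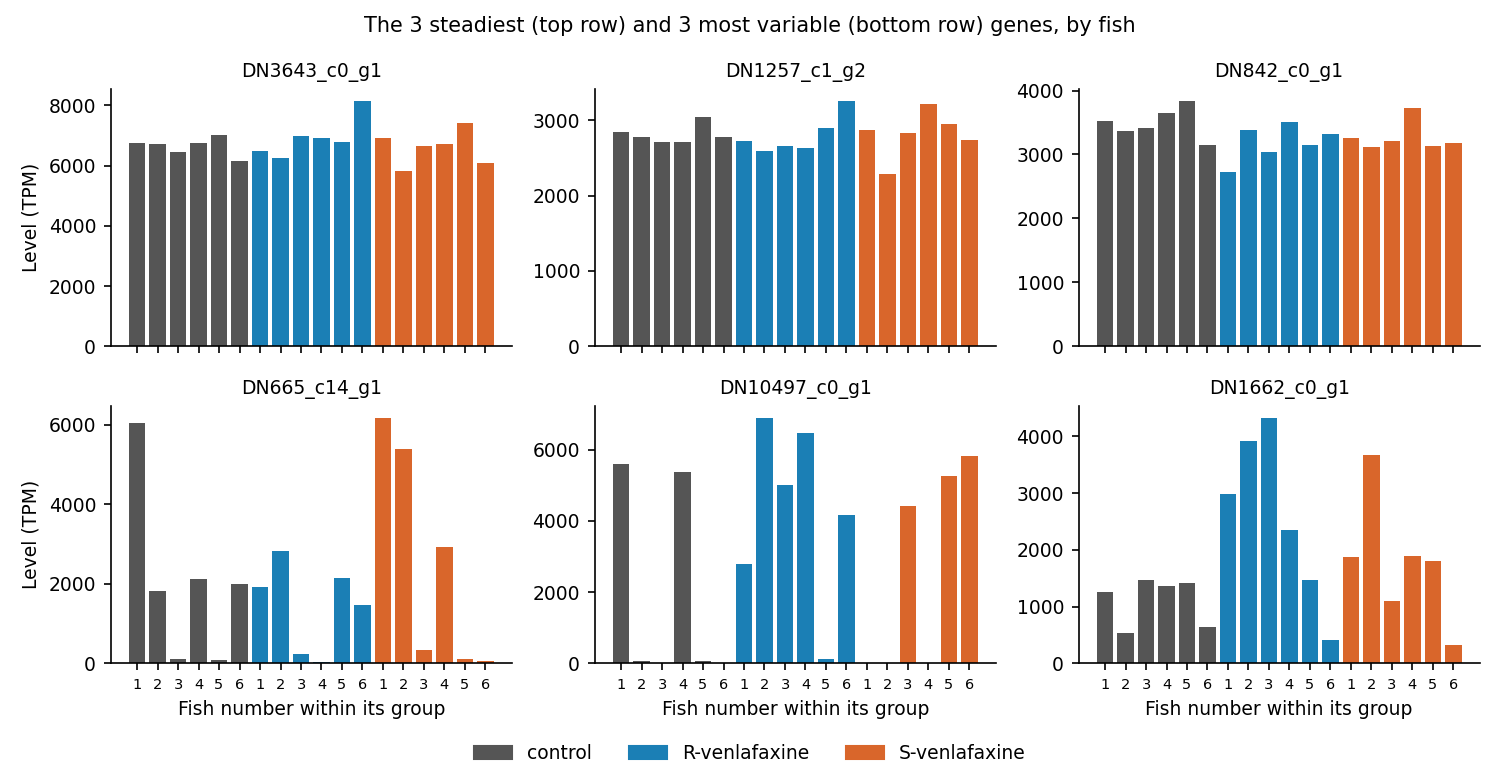
TPM (linear axes from 0) of the 3 steadiest genes (top) and the 3 most variable genes (bottom) of the 100 by CV of TPM. Each fish has 1 bar, coloured by group and numbered within it. The bars of the steady genes are of similar height in all groups, while TRINITY_DN10497_c0_g1 runs from 2.07 to 6879 TPM with an empty stretch between 135 and 2778 TPM.

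A gap of at least 2-fold between neighbouring fish was present in 8 of the 100 genes, and in 3 of them at least 5 fish lay on each side. The third of these, TRINITY_DN54558_c0_g2, chosen after its values were seen, had 9 fish at 1480 TPM or below and 9 at 3134 TPM or above. Its low side held 3 control, 2 R-venlafaxine and 4 S-venlafaxine fish. In TRINITY_DN62865_c0_g2, also chosen after its values were seen, 1 fish stood apart: R-venlafaxine fish 2 was at 61.9 TPM and the other 17 fish were at 816 TPM or above. The 10 genes with a 10-fold range together held 1.79% to 3.92% of a library, or 2.79 ± 0.719% in controls, 3.15 ± 0.579% with R-venlafaxine and 3.01 ± 0.656% with S-venlafaxine. Each of the 10 held at least 99.78% of the TPM of its component. The summed level of the component therefore had nearly the same range by construction and is no separate check.

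Some of the genes that varied kept a nearly fixed ratio to each other. Among the 50 genes with at least a 2-fold range, 10 of 1225 pairs (0.816%) had a ratio that varied less than 1.5-fold over the 18 fish, and the next 100 genes also gave 10 of 1225. The 10 pairs linked 13 genes into 5 blocks, named after their values were seen. Genes of a block that were linked only through another gene need not keep the 1.5-fold limit. TRINITY_DN78112_c0_g1 was 4.20 to 4.97 times (median 4.71) the level of TRINITY_DN1482_c1_g2 in every fish, while their sum ran from 32420 TPM in S-venlafaxine fish 2 to 69026 TPM in S-venlafaxine fish 4. TRINITY_DN68121_c0_g1 was 1.03 to 1.34 times TRINITY_DN4225_c0_g1 in every fish, with a sum between 2704 and 6093 TPM.

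The largest block joined TRINITY_DN35458_c0_g1 with 3 other genes, and its sum ran from 15313 TPM in S-venlafaxine fish 4 to 32261 TPM in R-venlafaxine fish 3. A block of 3 genes with TRINITY_DN960_c0_g1 ran from 4193 TPM in R-venlafaxine fish 1 to 11271 TPM in control fish 1. The last block was the same-component pair described above, from 14364 TPM in S-venlafaxine fish 4 to 35741 TPM in control fish 3. S-venlafaxine fish 4 was thus the lowest fish in 2 blocks and the highest in 2 others. Without it 11 more genes varied less than 2-fold and only 2 of the pairs met both limits, both with TRINITY_DN960_c0_g1. Without R-venlafaxine fish 3 there were 6 pairs. The points of a pair share the library and its composition, so these ratios are a description.

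**Figure D4:**
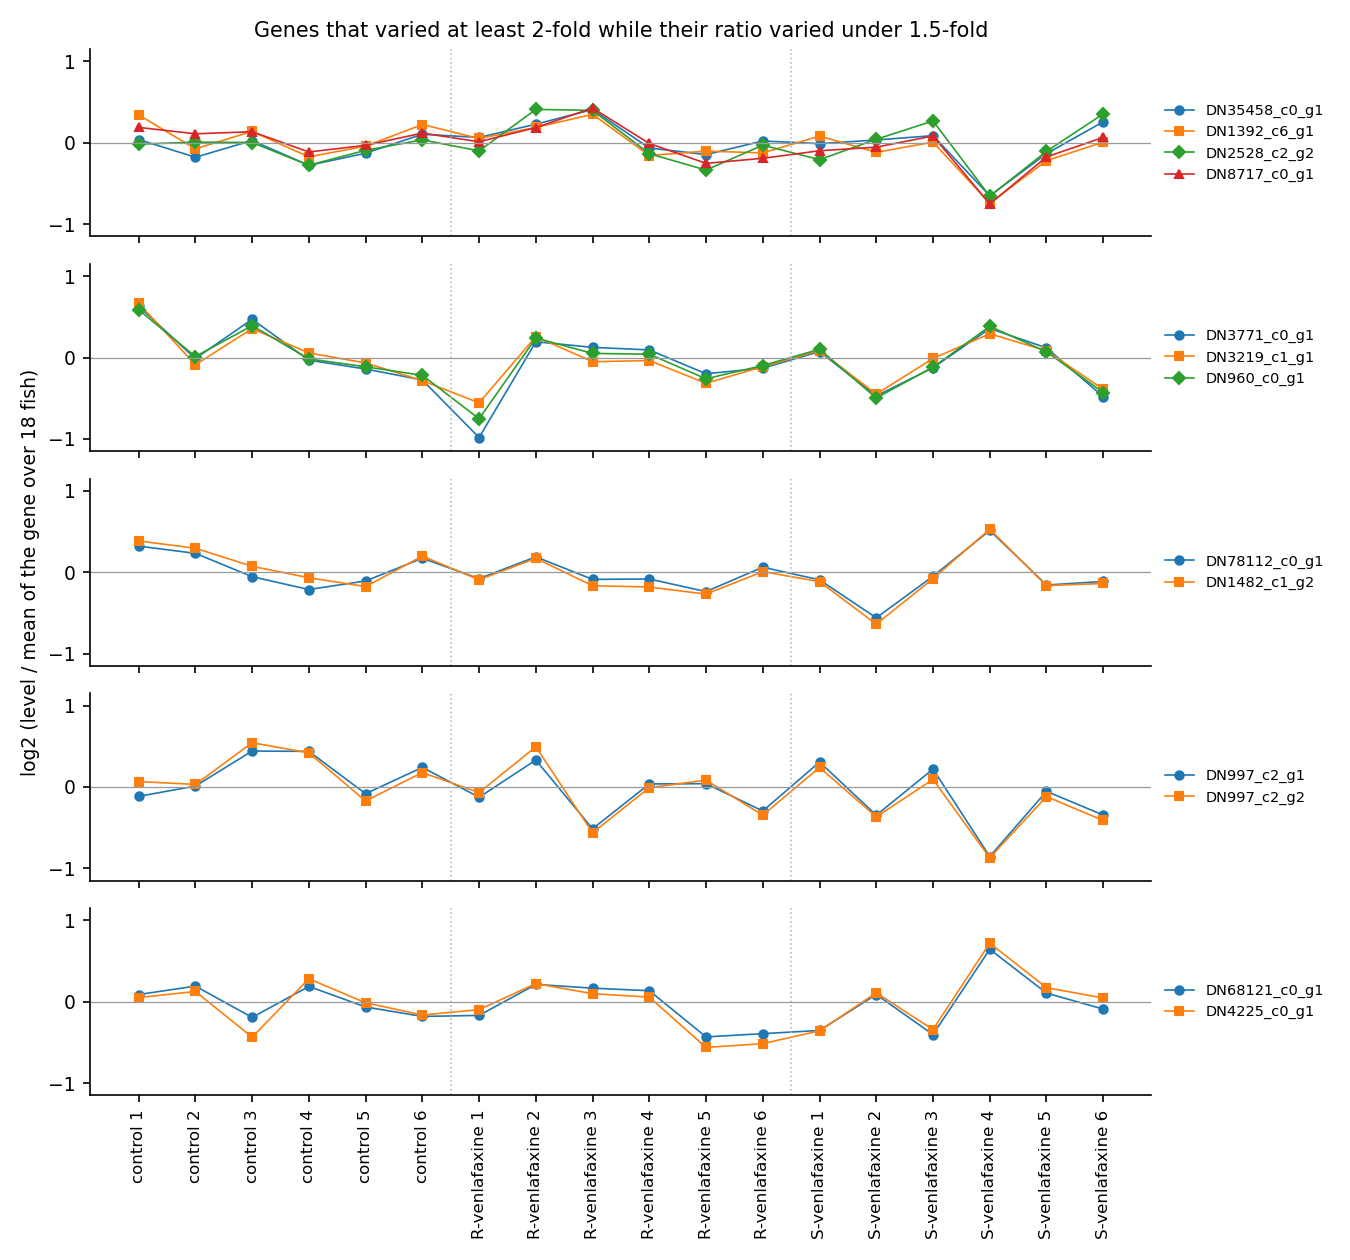
Log2 of each gene's TPM over its mean of 18 fish, by fish, for the 5 blocks of genes that varied at least 2-fold. Each gene kept a ratio varying less than 1.5-fold to at least 1 other gene of its block. Panels show 1 block each and 1 line per gene, with dotted lines between the groups. Lines within a panel run close together, and S-venlafaxine fish 4 is the lowest or highest fish in 4 of the 5 panels.

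The comparison of each exposure with control asked whether venlafaxine in the water changed the liver transcriptome, and the comparison of the exposures with each other whether its mirror-image forms differed. The 2 comparisons with control share the control fish. None of the 100 genes passed the test in any of them. R-venlafaxine against control gave 0 of 100 at an adjusted p under 0.05 by edgeR's quasi-likelihood test with Benjamini-Hochberg adjustment over the 59733 genes tested, where 0% of all genes were called. At an unadjusted p under 0.05 there were 2 of the 100, against 3.24% of all genes. Both were higher in exposed fish, against 1.48% of all genes higher and 1.76% lower. S-venlafaxine against control gave 0 of 100 against 0.00167% of all genes. At an unadjusted p under 0.05 there were 4 against 3.23%. All 4 were lower in exposed fish, against 1.71% of all genes lower and 1.52% higher. S- against R-venlafaxine gave 0 of 100 against 0.00167%, and 5 at an unadjusted p under 0.05 against 3.45%. Of these 5, 1 was higher and 4 were lower with S-venlafaxine, against 1.8% and 1.65% of all genes. The joint test of the 3 groups gave 0 of 100 against 0%, and 2 at an unadjusted p under 0.05 against 3.42%. The total counts are near the shares of all genes.

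DESeq2 also called 0 of the 100 genes in each of these 4 tests, where it called 0.126%, 0.109%, 0.154% and 0.0722% of all genes. In no gene of the set did all fish of a group lie above or below all fish of another. Among all genes, this was so for 0.0435% higher and 0.0954% lower with R-venlafaxine than control, 0.102% and 0.082% with S-venlafaxine than control, and 0.11% and 0.0485% with S- than R-venlafaxine.

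The intervals of these genes were narrow. The median standard error of a log2 fold change was 0.16 for the 100 genes against 0.53 for all genes in each comparison. In R-venlafaxine against control 87 of the 100 genes had a 95% interval inside a 2-fold change either way, against 34.7% of all genes. The same count was 87 for S-venlafaxine against control and 84 for the exposures against each other, against 34.9% of all genes in both. Within 0.5 on the log2 scale it lay for 57, 51 and 51, a limit at which the share of all genes was not computed. Where the interval was not inside a 2-fold change either way, a 2-fold difference was not outside it. A p above the threshold does not show that the 2 forms act alike, and for each gene the interval bounds the difference that these fish allow.

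The fitted changes were small. The median size of the log2 fold change was 0.09 with R-venlafaxine and 0.11 with S-venlafaxine, both against control, and 0.10 between the exposures, against 0.29, 0.29 and 0.28 over all genes. It was under 0.25 for 84, 84 and 83 of the 100 genes, and the share of all genes under this limit was not computed. Values of the set ran from -0.71 to 1.21, from -1.27 to 0.64 and from -0.89 to 0.81. The median signed change was -0.02, -0.04 and -0.01 for the set and 0.00, 0.01 and 0.01 for all genes. With TMM scaling 42, 36 and 46 of the 100 were above 0, against 50.3%, 51.2% and 51% of all genes. With scaling by library totals alone 48, 54 and 57 were, against 53.6%, 57.5% and 54.01% of all genes. A change of scaling shifts all genes alike, so the counts above 0 depend on it. The median of the set stayed slightly below that of all genes with each scaling. For S-venlafaxine against control it was -0.040 against 0.009 with TMM and 0.009 against 0.060 with library totals. The genes were chosen on these same libraries and this offset was not tested, so no direction is given for the set.

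**Figure D5:**
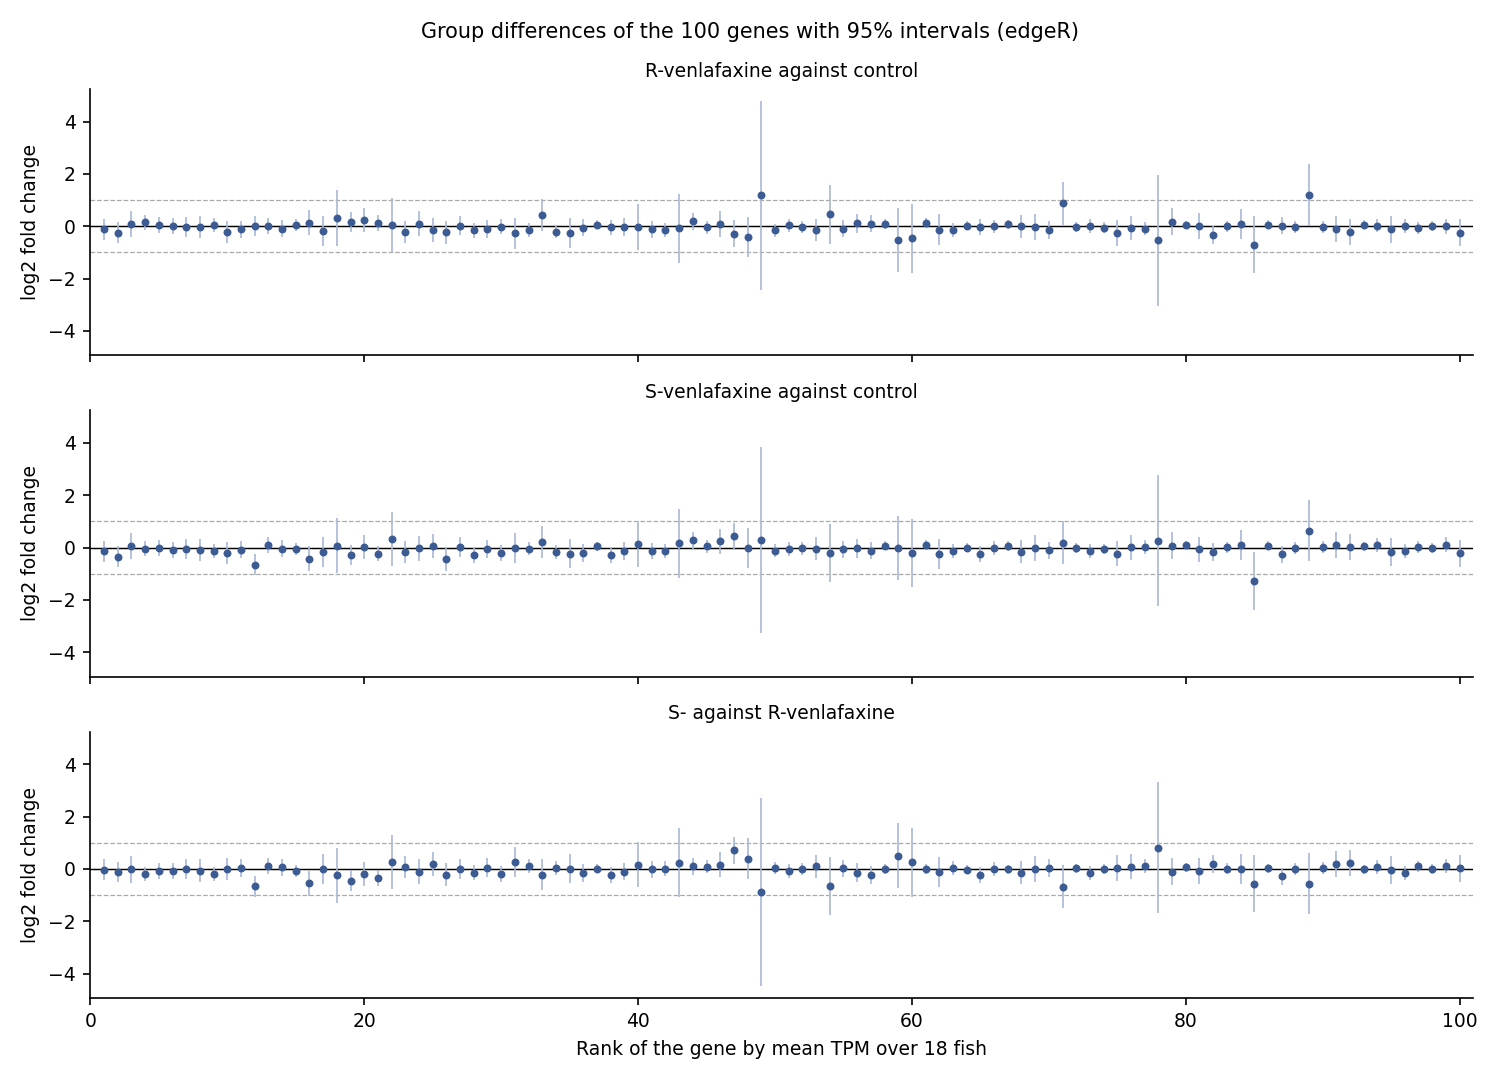
Log2 fold change (points) from edgeR with 95% intervals (lines) derived from its F statistic, for the 100 genes against their rank by mean TPM. There is 1 panel for each exposure against control and 1 for S- against R-venlafaxine, with dashed lines at a 2-fold change. Most points lie within 0.25 of 0, and the widest intervals are those of TRINITY_DN10497_c0_g1 at rank 49 and TRINITY_DN665_c14_g1 at rank 78.

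The gene with the lowest p of the set was TRINITY_DN69920_c0_g1 at rank 12. It was at 6895, 8637 and 11833 TPM (lowest, median and highest fish) in controls, 7176, 8553 and 10648 TPM with R-venlafaxine and 4836, 5171 and 7704 TPM with S-venlafaxine. In 5 of 6 S-venlafaxine fish it lay below every control and every R-venlafaxine fish, and S-venlafaxine fish 1 overlapped both. Group means were 8686 ± 1810, 8836 ± 1611 and 5703 ± 1133 TPM.

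For TRINITY_DN69920_c0_g1 the log2 fold change of S-venlafaxine against control was -0.66 (SE 0.191, 95% interval -1.06 to -0.26), with an unadjusted p of 0.00305 and an adjusted p of 1 in edgeR's quasi-likelihood test. S- against R-venlafaxine gave -0.67 (95% interval -1.07 to -0.27), with an unadjusted p of 0.00270 and an adjusted p of 1 in the same edgeR fit. R-venlafaxine against control gave 0.01 (95% interval -0.39 to 0.41), and the sign of this value changed under other settings. The difference did not pass the correction over all genes, and the gene was picked as the lowest p among 100.

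The other genes named by the lowest p in each direction had smaller or less steady differences. TRINITY_DN2592_c0_g1 (rank 71) was at 326, 1687 and 2811 TPM in controls, 1862, 2481 and 5840 TPM with R-venlafaxine and 1278, 1676 and 2910 TPM with S-venlafaxine. Its group means were 1627 ± 983, 2991 ± 1442 and 1912 ± 595 TPM. The R-venlafaxine and control fish overlapped, with 3 controls between the lowest and highest exposed fish and 1 control far below the rest. R-venlafaxine against control gave a log2 fold change of 0.88 (SE 0.392, 95% interval 0.05 to 1.71), an unadjusted p of 0.0388 and an adjusted p of 1 by edgeR. Leaving out 1 library moved the change of this gene between 0.58 and 1.09.

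TRINITY_DN3668_c2_g1 (rank 82) was at 1864, 2115 and 2576 TPM in controls and 1494, 1686 and 2015 TPM with R-venlafaxine, overlapping in a short stretch, with S-venlafaxine fish from 1398 to 2567 TPM across both. Its log2 fold change of R-venlafaxine against control was -0.34 (SE 0.165), with an unadjusted p of 0.0530 and an adjusted p of 1 by edgeR. TRINITY_DN9172_c0_g1 (rank 44) was at 2080, 2848 and 3391 TPM in controls and 2453, 3562 and 4314 TPM with S-venlafaxine, with R-venlafaxine fish from 2252 to 4463 TPM. Its log2 fold change of S-venlafaxine against control was 0.29 (SE 0.153), with an unadjusted p of 0.0784 and an adjusted p of 1 by edgeR.

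Differences between groups took up little of the variation in these genes. The median share of a gene's variance lying between the 3 groups was 7.40% for the 100 genes, 6.68% for the next 100 by mean level and 7.75% for the 800 after those. Some share lies between groups even with no effect of exposure. That baseline was not computed, so the share is not a measure of exposure. The median CV within a group was 15.4% in controls, 14.9% with R-venlafaxine and 18.6% with S-venlafaxine, next to the 16.6% over all fish together.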

How the data were processed

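The authors used RSEM 1.3.1, Bowtie2 2.2.7 and Trimmomatic 0.36, per the submitters' processing notes, with settings not given in the sources used. The authors deposited TPM and estimated counts for 302933 assembled genes. The deposited counts, rescaled, equalled TPM within 0.0055 TPM for 99.977% of values, so the 2 measures are proportional and not independent. Either both are corrected for gene length or neither is, and the values do not tell which. No sample column was left unmapped.

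Shares, ranks and CVs were computed from TPM. Estimated counts were rounded; filterByExpr (minimum count 10, minimum total 15) kept 59733 genes (19.7%), including all 100 genes described. edgeR's quasi-likelihood test (robust, TMM) was run two-sided in 1 fit of group means over the 18 libraries, with calls at a Benjamini-Hochberg adjusted p under 0.05 over all genes tested. Alternatives were other scalings, DESeq2, limma, other filters, fewer samples, a replicate block, library name letters, components and leaving out each library. The tests were tried on simulated data. Software was edgeR 4.0.16, limma 3.58.1 and DESeq2 1.42.0 in R 4.3.3, and scipy 1.17.1, pandas 2.3.3, networkx 3.6.1, numpy 2.4.6 and matplotlib 3.10.9 in Python 3.11.15.

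The genes and lists were chosen with earlier results of these data known. Named were the 5 highest by mean, the 3 highest and 3 lowest by CV, ranks 99 to 102, members sharing a component, and the lowest unadjusted p in each direction for each exposure against control and in the joint test. Other names are marked as chosen after their values were seen.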

Additional observations from a re-analysis of the deposited data

Results flagged for a closer look

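Within a group of 6 fish, a highest or lowest value was set apart when its gap to the nearest other fish exceeded Dixon's 95% critical value, which chance gives in about 1 of 20 groups. This held for 1 of 21 sets of library measures, 4 of 54 sets of named genes and 19 of 300 sets (6.33%) over all 100 genes. Control fish 1 stood apart in the share held by the 100 genes, at 48.4% against 45.0% for the next control. The same fish stood apart in TRINITY_DN665_c14_g1, at 6049 TPM against 2130 TPM for the next control. Control fish 3 stood apart in TRINITY_DN265_c0_g1, at 9592 TPM against 15456 TPM for the next lowest control. S-venlafaxine fish 4 stood apart in TRINITY_DN842_c0_g1, at 3733 TPM against 3263 TPM. R-venlafaxine fish 6 stood apart in TRINITY_DN2592_c0_g1, at 5840 TPM against 2981 TPM. Over all 100 genes, S-venlafaxine fish 4 was set apart in 5 and control fish 1 in 4.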

How the results depend on the processing

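The count of the 100 genes passing the adjusted threshold was 0 in all 123 values over 31 settings, 18 of which left out 1 library. The lowest adjusted p of any of the 100 was 0.108, in the joint test with no filter on low counts. For the named genes the adjusted p ran from 0.138 to 1. TRINITY_DN69920_c0_g1 in R-venlafaxine against control changed sign from 0.01 to -0.0067 with no filter, to -0.0076 with the library name letter as a covariate, and ranged from -0.11 to 0.15 on leaving out 1 library. With the replicate number as a block 0 of the 100 genes passed in each of the 4 tests. The numbers were not taken to pair fish, since same-numbered fish correlated between -0.057 and 0.098 in their deviations from group means. Taking 50 genes gave shares of 34.02%, 33.8% and 32.7% in control, R- and S-venlafaxine fish, a median CV of 18.97% and 25 genes in every library's own list. Taking 200 genes gave shares of 57.0%, 56.7% and 56.1% and 130 genes. TPM scaled by TMM factors gave a median CV of 20.3%. The other 129 of 139 descriptive values moved by less than a limit set for each result. For the median CV this limit was 2.01 percentage points, the SD of the medians within each group. Leaving out 1 library gave shares of 44.0% to 45.0%, 43.9% to 45.0% and 42.9% to 43.7%, a median CV of 15.6% to 17.5%, 60 to 62 genes in every list and a median rank correlation of 0.756 to 0.772. A linear model without sharing of variance between genes was chosen after seeing the data. The joint test was not run on fewer groups. TPM is relative, and depth as reads per gene cannot be read from these tables.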
